A study of Homo sapiens with 3 samples.

Results

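The AP-1 transcription factors FOS, FOSB, FOSL1, FOSL2, JUN, JUNB, JUND, BATF, BATF3 and MAFF were followed in MM1S cells, a line established from a human multiple myeloma, with and without FK866. The 10 genes were listed by name as a family, with earlier results of these data known. Each was represented by every probe set that the platform annotation assigns to that gene symbol alone. All 10 were found, with 21 of 54675 probe sets, among 19775 genes so annotated. FK866 inhibits NAMPT, the enzyme that recycles nicotinamide into NAD. The groups, of 1 Affymetrix array each, were untreated cells (labelled 0 h) and cells kept in 10 nM FK866 for either 6 h or 24 h. All were grown in RPMI-1640 with 10% serum. With no untreated array at 6 h or 24 h, treatment cannot be told apart from time in culture.

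AP-1 is a dimer of basic leucine zipper (bZIP) proteins. FOS proteins must pair with a JUN protein to bind DNA, whereas JUN proteins can also pair with each other. Growth factor, stress and cytokine signals induce several FOS and JUN genes within minutes to hours, through ERK, JNK and p38 kinases. The dimers bind the phorbol ester response element TGACTCA and the related cAMP response element TGACGTCA. BATF proteins pair with JUN proteins and, in lymphocytes, bind composite elements with IRF4, a factor on which plasma cells depend. MAFF is a small MAF protein without a transactivation domain and acts through its partners.

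The windows before the transcription starts of FOSL2, JUN, JUND and MAFF are printed because they belong to the member with the lowest difference, the JUN genes with several probe sets and the member with the highest 24 h difference, and show which bZIP elements lie there. They hold the 250 bases before the start, from RefSeq on GRCh38.p14, 5′ to 3′ on the strand of the gene. Capitals mark each TGACATCA, TGACGTCA and TGACG or the reverse complement of these. FOSL2 lies at chr2:28392608-28392857 on the plus strand, JUN at chr1:58784048-58784297 on the minus strand, JUND at chr19:18281623-18281872 on the minus strand and MAFF, at the first of its windows, at chr22:38201744-38201993 on the plus strand.
FOSL2: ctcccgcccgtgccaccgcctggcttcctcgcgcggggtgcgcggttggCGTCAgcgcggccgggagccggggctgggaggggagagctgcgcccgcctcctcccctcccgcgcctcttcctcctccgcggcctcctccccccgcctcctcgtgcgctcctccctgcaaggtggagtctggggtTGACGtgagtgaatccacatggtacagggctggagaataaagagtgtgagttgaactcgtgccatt
JUN: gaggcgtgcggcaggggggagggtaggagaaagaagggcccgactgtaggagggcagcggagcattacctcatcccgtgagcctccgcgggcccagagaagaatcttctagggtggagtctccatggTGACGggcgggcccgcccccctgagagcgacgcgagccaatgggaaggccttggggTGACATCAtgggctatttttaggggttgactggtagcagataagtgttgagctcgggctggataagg
JUND: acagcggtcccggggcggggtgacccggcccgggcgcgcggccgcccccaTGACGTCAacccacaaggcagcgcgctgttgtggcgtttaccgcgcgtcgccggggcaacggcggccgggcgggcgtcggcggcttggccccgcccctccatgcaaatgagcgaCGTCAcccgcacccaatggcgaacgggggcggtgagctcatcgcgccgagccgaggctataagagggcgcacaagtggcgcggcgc
MAFF: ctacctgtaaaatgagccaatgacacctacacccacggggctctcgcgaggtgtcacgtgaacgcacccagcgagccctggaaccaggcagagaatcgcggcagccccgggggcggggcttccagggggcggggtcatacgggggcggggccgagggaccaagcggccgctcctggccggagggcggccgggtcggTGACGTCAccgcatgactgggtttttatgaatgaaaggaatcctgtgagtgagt
Motifs were searched on both strands over 300 bases, with 50 bases after the start included, in 35116 windows of all genes. RefSeq windows were matched for 8 members, and those of BATF3 and FOSL1 were not used. The core TGACG, which overlaps TGACGTCA, was in a window of 7 of the 8 members (BATF held none) and in 24.6% of all windows. Counted back from the start, it began at base -64 in FOS, -60 in FOSB, -66 in FOSL2, -123 in JUN and -137 in JUNB. The full TGACGTCA was in JUND, from base -200 to -193, and in MAFF, from -54 to -47, against 1.85% of all windows. TGACATCA, a variant known from the JUN promoter, was in JUN from -67 to -60, against 2.61%. TGACTCA was in FOSL2, from base 5 to 11 after the start, against 4.95%. The CArG box, bound by serum response factor, was in 0 of these members' windows, against 1.29%. Sites outside these 300 bases were not searched, so the 0 does not show that a member lacks a CArG box. These matches describe letters in the windows, and no binding was measured.

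Signals are deposited probe set intensities on a linear scale, in arbitrary units, and are not comparable between probe sets. Values under a floor of 16 were set to 16, and log2 differences between arrays were taken. A gene counted as measured when a probe set reached the median level of all probe sets (a signal of 19.1), and it took the value of its brightest such probe set. Of the 10 members, 7 were measured, as were 11883 genes in all, and 14 of the 21 member probe sets passed. There was 1 array per group, so no test was possible and the differences have no replicate check. The only error at hand is the pooled SD of differences between probe sets of one gene. This SD leaves out variation between cultures and between arrays, since the probe sets share the same arrays. At 6 h against untreated cells it came to 0.61 at a mean gene signal under 32, 0.48 from 32 to 128, 0.38 from 128 to 512 and 0.33 above that. In bulk RNA, fewer cells with a transcript and less of it per cell cannot be told apart.

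The treated arrays were dimmer as a whole. The median signal was 20.5 without FK866, 17.4 at 6 h and 17.2 at 24 h. On the log2 scale the median measured gene stood at -0.10 relative to untreated cells after 6 h and at -0.13 after 24 h. Differences of the members are to be read against these shifts. Quantile normalization moved the median gene to 0.03 and 0.05, and scaling the arrays to a common median to 0.13 and 0.12. Of 8 plasma cell markers 7 were measured, including SDC1, PRDM1 and SLAMF7, and the signals of the 8 summed to 27479.3 untreated, 25545.3 at 6 h and 25297.0 at 24 h. Among them IRF4, the partner of BATF, had 1698.1 untreated, 2029.6 at 6 h and 3225.6 at 24 h, 1.90-fold higher at 24 h, and XBP1, a factor of secretory cells, had 8109.6, 5510.7 and 4694.7, 1.73-fold lower at 24 h. All 6 T and NK cell markers on the array missed the filter, CD14 and LYZ lay under the floor on each array, and the 6 myeloid markers summed to 70.6, 101.0 and 72.2. Of these 6, 2 were measured and above the floor on each array, CSF1R (29.7, 22.1 and 24.7) and ITGAM (24.7, 41.2 and 25.2), and their part in the results was not tested. Of 9 stroma markers 3 were measured, FN1, COL1A1 and THY1, and COL3A1 and PDGFRB lay under the floor. The 9 summed to 923.3, 831.7 and 339.0, mostly FN1 (798.2 untreated, 675.3 at 6 h and 203.1 at 24 h). COL1A1 went the other way (48.3, 55.9 and 69.2), 1.43-fold higher at 24 h, though its other probe set that passed gave -2.39. THY1 had 18.1, 28.2 and 3.9. COL1A2 missed the filter but lay above the floor on each array (16.6, 18.3 and 18.4). The part of cells expressing these markers in the results was not tested.

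**Figure D1:**
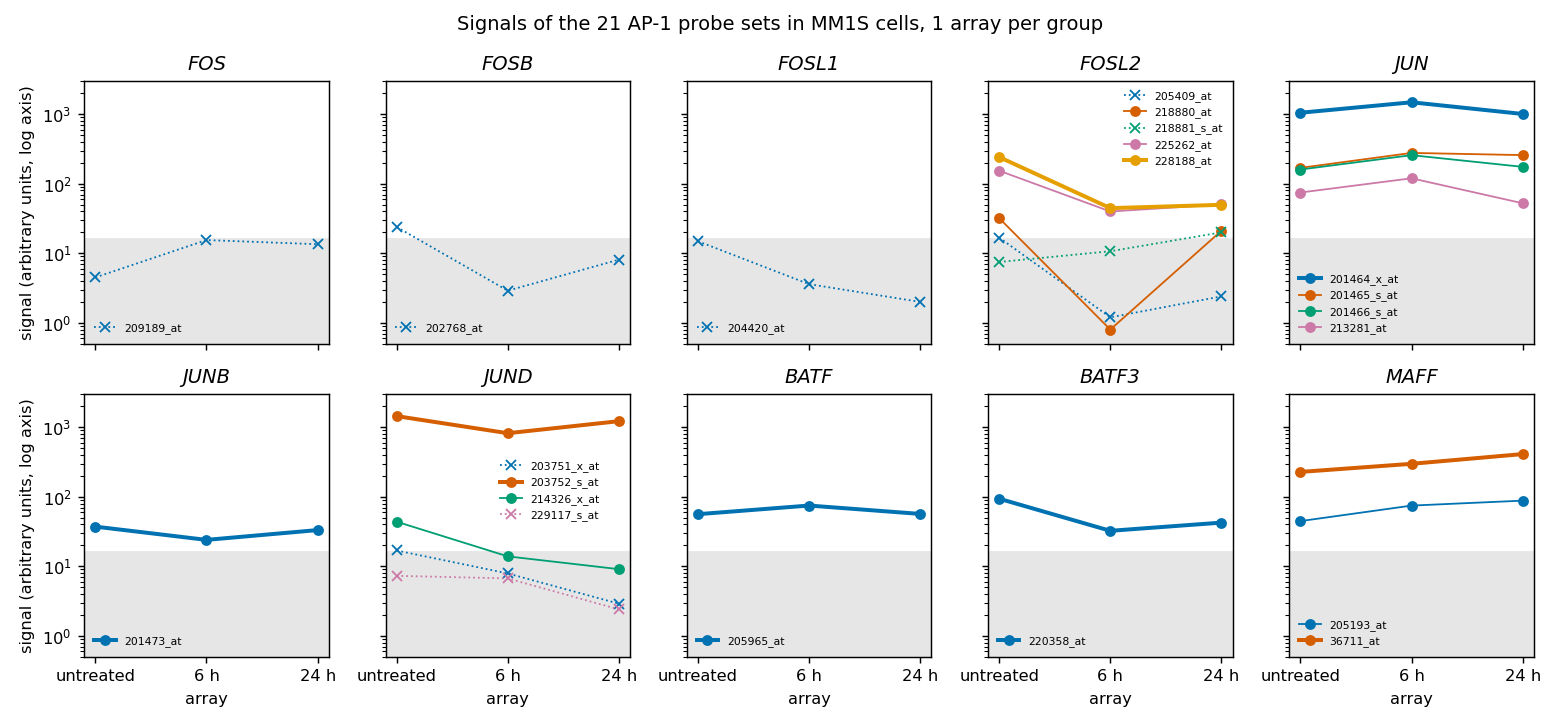
Deposited signal (log axis) of each of the 21 probe sets against array, 1 panel per gene, 1 point per array. The grey area lies under the floor of 16, thick lines give the gene's value, and dotted lines with crosses are probe sets that missed the filter. FOSL2 and BATF3 are lower on both treated arrays, MAFF is higher, and JUN is higher at 6 h in each of its 4 probe sets.

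In the FOS family, FOSL2 was the only measured member and was far lower on both treated arrays, whereas FOS and FOSL1 lay under the floor throughout. FOSL2 encodes Fra-2, a FOS-related partner of the JUN proteins. Its brightest probe set gave 242.0 untreated, 44.6 at 6 h and 49.8 at 24 h. Relative to untreated cells this is 5.43-fold lower at 6 h (log2 -2.44) and, at 24 h, 4.86-fold lower (-2.28). The difference at 6 h was larger than the probe set SD of 0.48 at this level, and 3 of 11883 measured genes lay lower. At 24 h, 23 genes lay lower.

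The other FOSL2 probe sets had the same direction where they were above the floor in untreated cells. Probe set 225262_at had signals of 154.0 untreated, 39.9 at 6 h and 50.4 at 24 h, that is 3.86-fold lower at 6 h and, at 24 h, 3.06-fold lower. Probe set 218880_at had 32, 0.8 and 21.1, at least 2-fold lower at 6 h and, at 24 h, 1.52-fold lower. These 3 probe sets passed the filter, but 218880_at did so only through its untreated signal, which favours a lower value on the treated arrays. It is thus no separate support for the difference. All 3 were higher at 24 h than at 6 h, by 0.16 for the brightest on the log2 scale. For 218880_at, whose 6 h signal lay under the floor, the rise was at least 0.40. Of the 2 that missed the filter, 205409_at had 16.8, 1.2 and 2.4, and 218881_s_at had 7.5, 10.7 and 20.0. The last is opposite in direction and lay under the floor on 2 arrays. Under each of 8 alternatives that gave FOSL2 a value it remained at least 2-fold lower at both times, from -2.44 to -1.80 at 6 h and from -2.28 to -1.50 at 24 h.

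Of the remaining FOS genes, FOS and FOSL1 had too little signal for a difference between times, and FOSB was above the floor only in untreated cells. FOS itself had signals of 4.5 untreated, 15.5 at 6 h and 13.5 at 24 h, all under the floor. FOSL1, which encodes Fra-1, had 14.9, 3.6 and 2.0, also under it. FOSB had 23.9 in untreated cells and 2.9 and 8.1 on the treated arrays, which bounds it at 1.49-fold or more lower at each time. It missed the filter, so it is in no count. Each of these 3 genes had 1 probe set.

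The JUN family was split at 6 h, with JUN higher and JUNB and JUND lower, and its gene values lay near untreated cells at 24 h. JUN encodes c-Jun, the main substrate of JNK among the AP-1 proteins. Its brightest probe set had 1049.9 untreated, 1484.2 at 6 h and 1008.1 at 24 h. That is 1.41-fold higher at 6 h than in untreated cells (0.50 on the log2 scale, against a probe set SD of 0.33). The other probe sets had 169.2, 277.6 and 258.2 (201465_s_at), 160.2, 257.6 and 174.9 (201466_s_at), and 74.8, 119.8 and 52.4 (213281_at). At 6 h, 4 of 4 probe sets were above untreated cells, by 0.50 to 0.71.

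At 24 h the JUN probe sets disagreed in direction. Their differences from untreated cells were -0.06, 0.61, 0.13 and -0.51, in the order given, and the gene value was positive under quantile normalization (0.11), common-median scaling (0.19), the mean over probe sets (0.04) and subtraction of the median gene (0.07). Between the treated arrays, 4 of 4 JUN probe sets were lower at 24 h than at 6 h, by log2 values from -1.19 to -0.10. The brightest gave -0.56, and 213281_at was 2.29-fold lower.

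JUND, a JUN protein expressed widely in resting cells, was lower at 6 h. Its brightest probe set had signals of 1446.1 untreated, 820.6 at 6 h and 1222.2 at 24 h. It was 1.76-fold lower at 6 h (-0.82, against an SD of 0.33) and, at 24 h, 1.18-fold lower (-0.24). Between the treated arrays it was 1.49-fold higher at 24 h than at 6 h. Probe set 214326_x_at had 43.8, 13.9 and 9.1, at least 2.74-fold lower at each time. Its treated signals lay under the floor, so it passed the filter only through its untreated signal, and its direction was fixed. With the mean over probe sets, which includes it, JUND was at least 2-fold lower at 6 h (-1.14) and differed by -0.85 at 24 h. These means are thus no separate support for the brightest probe set. The other 2 probe sets, with 16.9, 7.9 and 2.9, and 7.3, 6.7 and 2.4, missed the filter. The 24 h gene value reached 0.00 under common-median scaling.

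JUNB, which can pair with FOS proteins and restrain c-Jun, had 37.2 untreated, 24.0 at 6 h and 33.2 at 24 h in its only probe set. It was 1.55-fold lower at 6 h (-0.63), about the probe set SD of 0.61 at this low level. At 24 h it differed by -0.16, and by 0.13 and 0.08 under quantile normalization and common-median scaling. With a floor of 64 it had no difference to measure.

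Of the BATF genes, BATF3 was at least 2-fold lower at both times and BATF was not. BATF3 is a JUN partner needed, in mice, for a class of cross-presenting dendritic cells. Its only probe set had 93.8 untreated, 32.4 at 6 h and 42.5 at 24 h. It was 2.90-fold lower at 6 h (-1.53, against an SD of 0.48) and, after 24 h, 2.21-fold lower (-1.14, against 0.47). At 6 h 53 genes lay lower and at 24 h 326. The 24 h value was under 2-fold with quantile normalization (-0.90), common-median scaling (-0.90), a floor of 64 (-0.55) and log2(signal + 32) (-0.76), and the 6 h value with the last 2 (-0.55 and -0.97).

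BATF, the JUN partner of B and T cells, had 56.2 untreated, 74.8 at 6 h and 56.7 at 24 h in 1 probe set. It was 1.33-fold higher at 6 h (0.41), within the probe set SD of 0.48, but past it with quantile normalization (0.61) and common-median scaling (0.64). At 24 h it differed by 0.01.

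MAFF was the only measured member with a higher signal at each later time in all of its probe sets. Probe set 36711_at had 227.8 untreated, 297.9 at 6 h and 411.2 at 24 h. It was 1.31-fold higher at 6 h (0.39, against an SD of 0.38) and 1.81-fold higher at 24 h (0.85, against 0.39). Probe set 205193_at had 44.7, 74.7 and 88.0, which is 1.67-fold higher at 6 h and 1.97-fold higher at 24 h. At 24 h, 233 of 11883 genes lay higher than MAFF. It reached 2-fold at 24 h with quantile normalization (1.00) and common-median scaling (1.10), and ranged from 0.77 to 1.10 over all settings.

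**Figure D2:**
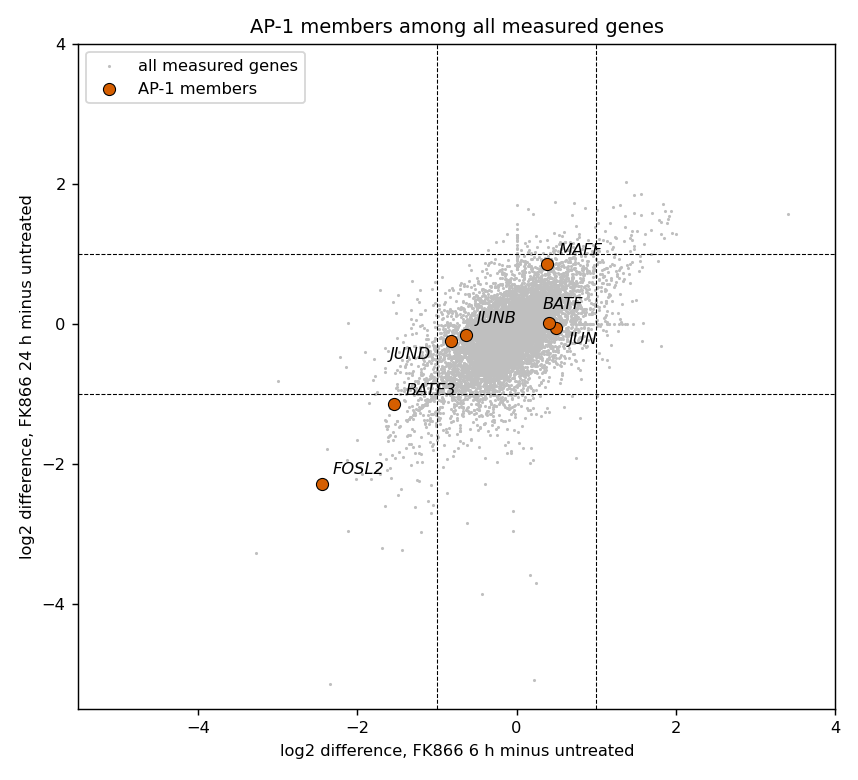
Log2 difference from untreated cells at 24 h (vertical) against 6 h (horizontal), 1 point per measured gene; orange points are the 7 measured AP-1 members and dashed lines mark 2-fold. Both axes share the untreated array, which by itself draws points towards the diagonal. FOSL2 at -2.44 and -2.28 and BATF3 at -1.53 and -1.14 are past 2-fold on both axes, and MAFF has the highest 24 h value of the members at 0.85.

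Over the 7 measured members, 2 were lower by 2-fold or more and 0 were higher by as much at 6 h, against 3.32% and 1.44% of all measured genes. Among the 2817 genes with a mean signal from 32 to 128, the level of FOSL2 and BATF3, 4.47% were at least 2-fold lower. At 24 h the counts were again 2 and 0, against 4.17% and 1.14% of all genes and 5.96% lower at that level. The 24 h and 6 h comparisons share the untreated array, so the recurrence of FOSL2 and BATF3 is not an independent repeat. The balance of all genes depended on the scaling. At 6 h, 171 were at least 2-fold higher and 395 lower, against 279 and 208 after quantile normalization and 305 and 167 after common-median scaling. At 24 h, 135 were higher and 495 lower, against 288 and 264, and 273 and 240.

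The median member differed by -0.63 at 6 h, against -0.10 for the median gene, with 4 members below that gene and 3 above. At 24 h the median member differed by -0.16, against -0.13, and was positive after quantile normalization (0.11) and common-median scaling (0.08). Between the treated arrays 0 members differed 2-fold, against 1.09% of genes higher and 1.84% lower at 24 h than at 6 h. There the median member was at 0.39, with FOSL2, JUNB, JUND, BATF3 and MAFF higher at 24 h and JUN and BATF lower. At 6 h, 6 of the 7 differed from untreated cells by more than the probe set SD of their level (BATF did not), against 27.7% of all measured genes. At 24 h FOSL2, BATF3 and MAFF did, 3 of 7, against 31.1% of all genes. Which members pass at 6 h depended on the scaling. With quantile normalization and common-median scaling BATF was at 0.61 and 0.64, past the SD of 0.48. JUNB was then at -0.39 and -0.40, inside the SD of 0.61. Without scaling MAFF passed narrowly, at 0.387 against 0.384.

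**Figure D3:**
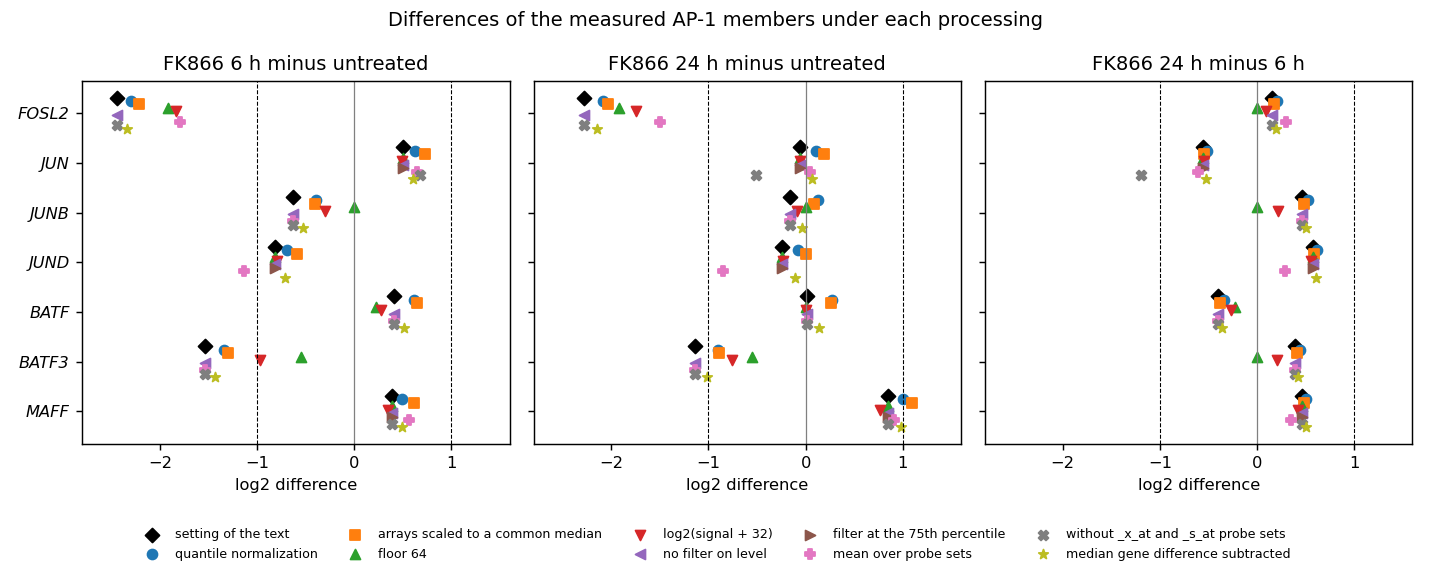
Log2 difference (horizontal) of each measured member in the 3 comparisons, 1 symbol per processing setting; black diamonds are the values of the text and dashed lines mark 2-fold. Against untreated cells, FOSL2 lies past 2-fold in every setting that measured it, from -2.44 to -1.80 at 6 h. BATF3 at 24 h spans -1.14 to -0.55, and JUN, JUNB and JUND at 24 h spread across or up to 0. Between the treated arrays FOSL2 stays within 2-fold, from 0.00 to 0.30.

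Among 17 bZIP partners and relatives, 11 were measured and 2 were at least 2-fold lower at each time, with 0 higher. Of all measured genes, 3.32% were lower and 1.44% higher by as much at 6 h, and 4.17% and 1.14% at 24 h. The 2 lower relatives were BACH2 and NRL. Both rest on probe sets named _s_at, and neither was measured without these. At 24 h the count was 0 with quantile normalization, common-median scaling and log2(signal + 32), and at 6 h it was 1, BACH2, with common-median scaling, log2(signal + 32), a floor of 64 and the filter at the 75th percentile. The list median was -0.11 at 6 h and -0.19 at 24 h, near the median gene. BACH2, a repressor of B cells that pairs with small MAF proteins, had 269.1 untreated, 102.7 at 6 h and 134.5 at 24 h. This is 2.62-fold lower at 6 h and, at 24 h, 2.00-fold lower, a 24 h value under 2-fold with 4 alternatives, quantile normalization among them. The other BACH2 probe set that passed gave -1.32 at 6 h and -1.71 at 24 h. NRL, a MAF-related factor of photoreceptors, was dim (37.4, 12.4 and 16.5), at least 2.34-fold lower at 6 h and, at 24 h, 2.27-fold lower. It was under 2-fold at both times with common-median scaling, log2(signal + 32) and a floor of 64. Both treated signals of NRL lay under the filter level of 19.1. It passed the filter only through its untreated signal, which favours a lower value, so its place in the count is no support.

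The gene values of the other measured partners lay within 2-fold of untreated cells. ATF3, a stress-induced partner of JUN proteins, had 427.3 untreated, 370.8 at 6 h and 426.2 at 24 h. MAF, an oncogene in part of myelomas, had 3957.9, 4027.0 and 3519.9. The small MAF partners NFE2L2 (NRF2) and BACH1, its competitor, differed by -0.52 and -0.71 at 6 h and by -0.68 and -0.86 at 24 h, and the other NFE2L2 probe set that passed gave -1.08 at 6 h, past 2-fold lower. JDP2, a repressor that pairs with JUN, had 19.3, 9.0 and 7.9 and missed the filter.

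Kinases and other inputs of AP-1 numbered 20 measured of 23 listed, with 0 at least 2-fold higher and 0 lower at either time, except that MRTFB, a coactivator of SRF, reached 2-fold higher at 6 h with quantile normalization and common-median scaling. MRTFB gave 133.5 untreated, 247.4 at 6 h and 221.2 at 24 h, 1.85-fold higher at 6 h. The median of these inputs was -0.01 at 6 h and -0.09 at 24 h. Of all measured genes, 1.44% were at least 2-fold higher and 3.32% lower at 6 h, and 1.14% and 4.17% at 24 h. At a size of 1.5-fold, 2 of the 20 inputs were lower and 1 higher at 6 h, against 11.4% and 5.71% of all measured genes. At 24 h, 6 of the inputs were lower by 1.5-fold and 1 higher, against 14.2% and 5.03%. The JNK genes MAPK8 and MAPK9 differed by 0.18 and 0.15 at 6 h and by -0.19 and 0.33 at 24 h. The 5 MAPK8 probe sets that passed disagreed, from -1.14 to 0.18 at 6 h. Those of ELK4, also 5, ran from -1.45 to -0.16 at 6 h, the last being its gene value. The JNK kinase MAP2K4 differed by 0.13 and 0.00, and SRF, which drives FOS through the CArG box, by 0.37 and 0.51, while the other SRF probe set gave -0.73 and -0.16. Probe sets with MAPK14 or MAP2K7 as their only symbol were not found, so these have no value here.

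AP-1 target genes known from other cells numbered 15 measured of 30 listed. At 6 h 0 were at least 2-fold higher and 0 lower, with a median of -0.24, though SPP1 (osteopontin, near the floor at 17.6 untreated and 33.8 at 6 h) reached 2-fold higher under quantile normalization, common-median scaling and subtraction of the median gene. CCND1 (cyclin D1) was at least 2-fold lower at 6 h without probe sets named _x_at or _s_at. At 24 h 1 of the 15 was higher and 1 lower, against 1.14% and 4.17% of all measured genes (1.44% and 3.32% at 6 h). The list median at 24 h was -0.39, against -0.13 for the median gene. EZR, which links membrane proteins to actin, had 2801.0 untreated, 1714.3 at 6 h and 972.4 at 24 h. It was 2.88-fold lower at 24 h, with 5 probe sets from -1.70 to -0.65, and was under 2-fold without probe sets named _x_at or _s_at. HBEGF, a ligand of the EGF receptor, had 71.9, 103.8 and 173.2 and was 2.41-fold higher at 24 h (1.27), a value under 2-fold with log2(signal + 32) (0.98). Its other probe set gave -0.34 at 6 h and 0.74 at 24 h. Of the 30 listed targets, 15 missed the filter, among them IL6, CXCL8 and MMP1.

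**Figure D4:**
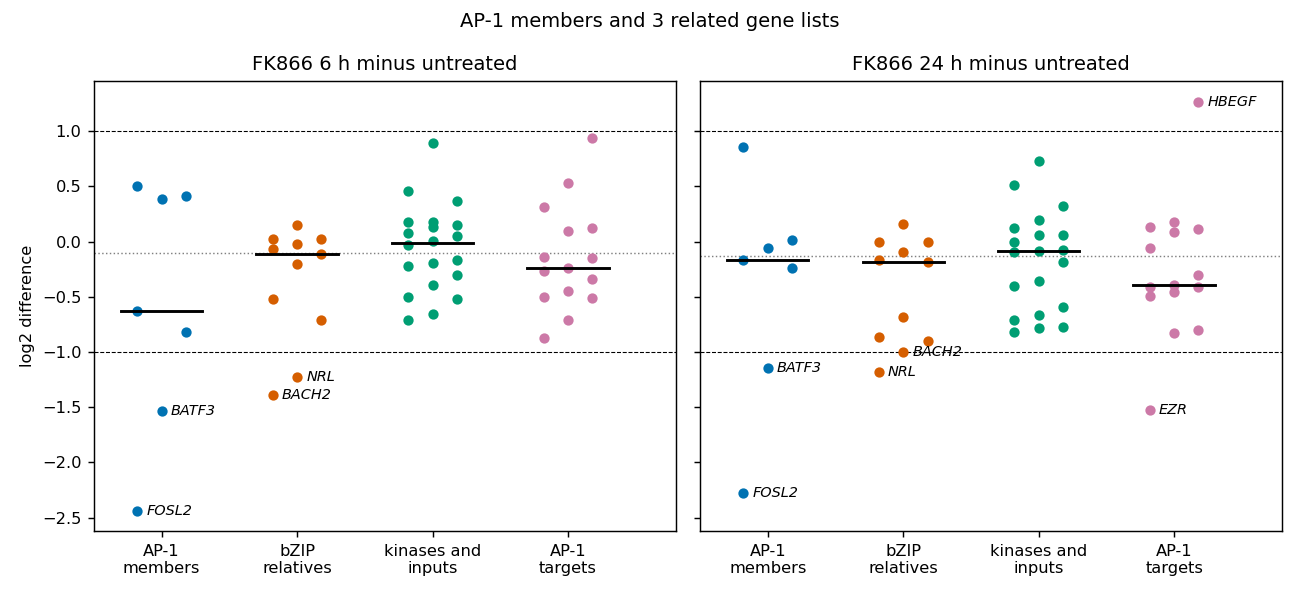
Log2 difference from untreated cells (vertical) of the measured AP-1 members and of 3 related lists, 1 point per gene, at 6 h (left) and 24 h (right). Horizontal bars are list medians, the dotted line is the median of all measured genes and dashed lines mark 2-fold. FOSL2 and BATF3 lie lowest among the members, BACH2 and NRL among the relatives, and EZR and HBEGF are the targets past 2-fold at 24 h.

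The genes whose pair of differences was nearest to that of FOSL2, by Euclidean distance over the 3 arrays among 10861 genes above the floor on each, were PDE4B (distance 0.43), NAMPT (0.46) and HIVEP1 (0.49). PDE4B, a phosphodiesterase of cAMP, had 724.7 untreated, 179.4 at 6 h and 156.7 at 24 h. NAMPT, the enzyme FK866 inhibits, had 5472.6, 1248.3 and 1422.5. HIVEP1, a zinc finger factor, had 1210.4, 231.7 and 349.9. Nearest to BATF3 were CIC (0.14), SIPA1L2 (0.14) and SPTB (0.16). CIC, a repressor of growth factor response genes, had 100.8, 38.0 and 47.5. The distances rest on the brightest probe set of each gene. At 6 h the mean over probe sets put SPTB at -0.24, against -1.46 for its brightest. HIVEP1 was at -1.30 by that mean, against -2.39. PDE4B (-1.45 against -2.01) and NAMPT (-1.85 against -2.13) moved less at 6 h. CIC and SIPA1L2 each had 1 probe set that passed. With 3 arrays a pattern is only 2 numbers, so nearness is a weak likeness.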

How the data were processed

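Signals of MM1S cells came from 1 array of each of 3 groups, so the number of arrays limits the precision. Labelling of total RNA as biotinylated cRNA followed the Affymetrix procedure, per the labels' protocols. The deposited table holds linear intensity values per probe set, from 0.1 to 20257.9; no label or header states how the authors summarised, background-corrected or scaled them. Probe sets were named by the platform annotation: 41097 had 1 symbol, 1801 several and 11777 none. The 62 control probe sets were left out. Signals were floored at 16 and log2 taken; probe sets at or above the median mean log2 value were kept. Alternatives covered scaling, floor, filter, probe set summary, probe set type and size; subtracting the median gene was added after seeing the data. The code was checked on simulated data with changes of known size. The simulated noise was smaller than the probe set SDs here, and no simulated array was dimmer as a whole. That check therefore does not bear on how reliable the differences between these arrays are.

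The members, lists, floor and filter were chosen with earlier results of these data known. Named were all members, ATF3, JDP2, MAF, NFE2L2, BACH1, MAPK8, MAPK9, MAPK14, MAP2K4, MAP2K7 and SRF, listed genes differing 2-fold, and the 3 nearest genes above the floor on all arrays of each member differing 2-fold. Other genes are named as markers, or as examples chosen after their values were seen. Values were computed in Python 3.11.15 (pandas 2.3.3, numpy 2.4.6) and plotted with matplotlib 3.10.9.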

Additional observations from a re-analysis of the deposited data

Results flagged for a closer look

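JUN lay in opposite directions at the 2 times: its brightest probe set was above untreated cells at 6 h (log2 0.50) and slightly below them at 24 h (-0.06), a difference of -0.56 between the treated arrays. This difference was not tested, since each group has 1 array. At 24 h the sign of JUN depended on the probe set, with 2 of 4 above 0, and on the scaling.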

How the results depend on the processing

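No paired analysis was possible because each group has 1 array and the groups share only replicate number 1. In the counts of members at least 2-fold different and the medians over members, 70 alternative values stayed within 1.5 times (counts) or the pooled probe set SD (medians) of the reported value and 17 did not. Many of those that stayed are counts of 0 that remained 0, so these totals do not measure stability. The count of lower members moved in 4 alternatives at 6 h and in 5 at 24 h. At 6 h the 2 lower members became 1 with a floor of 64 and with log2(signal + 32), 0 with a filter at the 75th percentile, which measures 3 members and not FOSL2 or BATF3, and 4 at a size of 1.5-fold. At 24 h the 2 became 1 with quantile normalization, common-median scaling, a floor of 64 and log2(signal + 32), FOSL2 remaining each time, and 0 with the filter at the 75th percentile. The 0 members higher at 24 h became 1, MAFF, with quantile normalization, common-median scaling and a size of 1.5-fold. Between the treated arrays, the 0 lower members became 1, JUN, without probe sets named _x_at or _s_at. The median member moved to 0.00 at 6 h and between the treated arrays with a floor of 64, under which all 10 members pass the filter, to 0.39 at 6 h with the filter at the 75th percentile, and to -0.12 at 6 h without probe sets named _x_at or _s_at. A size of 1.5-fold took 679 genes higher and 1350 lower at 6 h and 598 and 1682 at 24 h; a floor of 64 left 49 and 115, and 36 and 161, log2(signal + 32) 43 and 91, and 25 and 158, and the filter at the 75th percentile 43 and 93, and 32 and 130. The cause of these moves was not tested, except that a higher floor and a pseudocount shrink differences of dim probe sets by construction, and the filter at the 75th percentile leaves fewer members. FOSL2, BATF3, BACH2, NRL, EZR and HBEGF kept their direction in each setting that gave a value, at the times they were reported past 2-fold, except that NRL had no difference with a floor of 64. Signals near the floor limit FOS, FOSB, FOSL1 and JUNB.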
